A study of Drosophila melanogaster with 16 samples.

Results

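RNA bound to tagged ribosomes of Gr5a cells was compared with RNA of the whole head lysate in flies kept on a control diet. The comparison rests on 6 of the 16 libraries of the series, chosen by their titles: 3 replicates of the Gr5a fraction and 3 of the input, each taken after 7 days on the diet. All were from adult male Drosophila melanogaster of the genotype Gr5a>UAS-Rpl3-3XFLAG, which ate food with 5% sucrose from day 5 to day 12 and were then frozen, and each replicate was made from 300 heads separated from the bodies on sieves. Part of each lysate gave the input, and the rest was cleared with uncoated beads and then incubated with beads that carried an antibody to the FLAG tag. The same genotype on 30% sucrose for 7 days, with 2 libraries of each fraction, is used below as a second set of samples.

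In this method, translating mRNA affinity purification (TRAP), a driver turns on a tagged protein of the large ribosomal subunit in chosen cells, so that the ribosomes of those cells, with the mRNAs they are translating, can be pulled out of a mixed tissue. The driver here follows Gr5a, which encodes a receptor for sugars in the sweet-sensing neurons of the taste bristles on the mouthparts and legs. Those neurons are a small part of a head that also holds brain, compound eyes, antennae, muscle, fat body, glia and cuticle-making epidermis. They are ciliated sensory cells, and their dendrites reach the pore of a bristle surrounded by support cells. The pull-down selects ribosomes, so RNA that never meets a cytoplasmic ribosome should not follow the tag, and the labels list no pull-down from flies without the tag, so RNA that stuck to the beads was not measured separately. In whole heads, fewer cells of a type and less RNA per cell cannot be told apart, and in the pull-down neither can be told apart from the share of an mRNA that is on tagged ribosomes.

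Gene counts per library ran from 37460422 to 55290069, and 12866 to 13884 genes had at least 10 counts. The first principal component held 65.0% of the variance and placed replicates 1, 2 and 3 of the Gr5a fraction at 79.8, 39.4 and 56.9. The 3 input libraries lay at -66.4 to -48.6, so replicate 2 was the pull-down library nearest to them. On the second component, which held 13.3%, replicates 1, 2 and 3 of the Gr5a fraction lay at 1.08, 48.0 and -43.0, so replicates 2 and 3 were at opposite ends. Rows named for ribosomal RNA genes and pseudogenes, which mostly hold what ribosomal depletion left, took 8.76%, 3.32% and 11.7% of the gene counts of replicates 1, 2 and 3 of the Gr5a fraction and 7.67% to 8.30% in the input. RpL3, whose protein carried the tag and whose gene overlaps a snoRNA gene on the same strand, stood at 882, 1087 and 860.3 CPM in the Gr5a fraction and 762, 863 and 743 CPM in the input, and its log2 fold change of 0.26 was not called (adjusted p = 0.158), although a fit that paired the replicates called it (0.24, adjusted p = 0.0362).

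Values are given as counts per 1000000 (CPM), with libraries scaled by TMM factors, and listed for replicates 1, 2 and 3 in that order. Differences are log2 fold changes of the Gr5a fraction over the input with their standard errors (SE, written after ±), and a gene was called at an adjusted p-value under 0.1 in edgeR's quasi-likelihood F test over all genes. Of 14185 genes tested, 3442 (24.3%) were called higher in the Gr5a fraction and 3114 (22.0%) lower, and the median log2 fold change over all of them was 0.02. The CPM of the libraries did not overlap between fractions in 3876 genes (27.3%) that were higher and 3852 (27.2%) that were lower. Large increases were fewer than large decreases at a log2 size of 2, where 290 called genes lay above and 520 below, but not at a log2 size of 4, where 54 lay above and 35 below. These shares are the background against which the gene lists below are read. The lists were drawn up with earlier results of these data known, so the comparison describes them and is not a test.

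Receptor genes of sweet-sensing and fatty-acid-sensing cells were the list that stood highest. Of 12 listed genes 8 were tested, 7 were called higher and none lower, and their median log2 fold change was 3.31. Gr5a itself (FBgn0003747, X:5680617-5682488) stood at 3.54, 2.01 and 2.80 CPM in the Gr5a fraction and 0.207, 0.399 and 0.249 CPM in the input. Every pull-down library lay above every input library, and the gene rose by 3.27 ± 0.44, adjusted p = 0.000606, or by 1.75 (adjusted p = 0.054) in counts that ignored strand. That alternative, called the unstranded counts below, lacked Gr5a replicate 1, which was deposited for the sense strand alone. Gr64f, a receptor needed for responses to most sugars, stood at 5.48, 3.80 and 4.55 CPM in the Gr5a fraction and 0.0777, 0.0469 and 0.498 CPM in the input. It rose by 4.36 ± 0.74, adjusted p = 0.00189, and by 6.16 when input replicate 3, the highest of the input libraries, was left out. Gr64a, its neighbour in a cluster of sugar receptor genes, stood at 3.44, 1.71 and 1.55 CPM in the Gr5a fraction and 0.155, 0.258 and 0.231 CPM in the input and rose by 3.35 ± 0.52, adjusted p = 0.00133. Gr61a, another receptor of this family, was nearest to the input, at 1.23, 1.23 and 1.5 CPM in the Gr5a fraction and 0.492, 0.633 and 0.907 CPM in the input. Its libraries did not overlap, but its increase (0.95 ± 0.36, adjusted p = 0.0621) lost the call in 4 of the 6 fits that left out 1 library, those without Gr5a replicate 1 or 3 or input replicate 1 or 2, where adjusted p lay between 0.103 and 0.204.

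The ionotropic receptors of the list rose too. Ir56d, which taste neurons use to sense fatty acids, stood at 5.82, 2.92 and 3.92 CPM in the Gr5a fraction and 0.363, 0.141 and 0.107 CPM in the input. It rose by 4.40 ± 0.71, adjusted p = 0.00148, and by 5.06 without input replicate 1. Ir76b and Ir25a encode co-receptors that many ionotropic receptors share. Ir76b stood at 83.0, 65.6 and 71.5 CPM in the Gr5a fraction and 2.41, 3.21 and 3.80 CPM in the input, a rise of 4.54 ± 0.18, adjusted p = 2.32e-06, and Ir25a at 47.4, 21.2 and 35.0 CPM in the Gr5a fraction and 3.16, 3.64 and 3.98 CPM in the input, a rise of 3.26 ± 0.28, adjusted p = 8.02e-05. In both genes the lowest pull-down library was several times above the highest input library. Gr43a, which senses fructose, stood at 0.236, 0.0199 and 0.139 CPM against 0.441, 0.164 and 0.373 CPM and was not called (adjusted p = 0.251). The remaining members of the Gr64 cluster were below the filter. Gr64b, Gr64c and Gr64d had 0 counts in all 6 libraries, which allows up to 0.0533 to 0.0833 CPM in a single library (3 counts, counting error only), and Gr64e had 1. In the annotation Gr64b overlaps Gr64c and Gr64d overlaps Gr64e on the same strand, where this kind of counting assigns a read to neither gene.

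**Figure D1:**
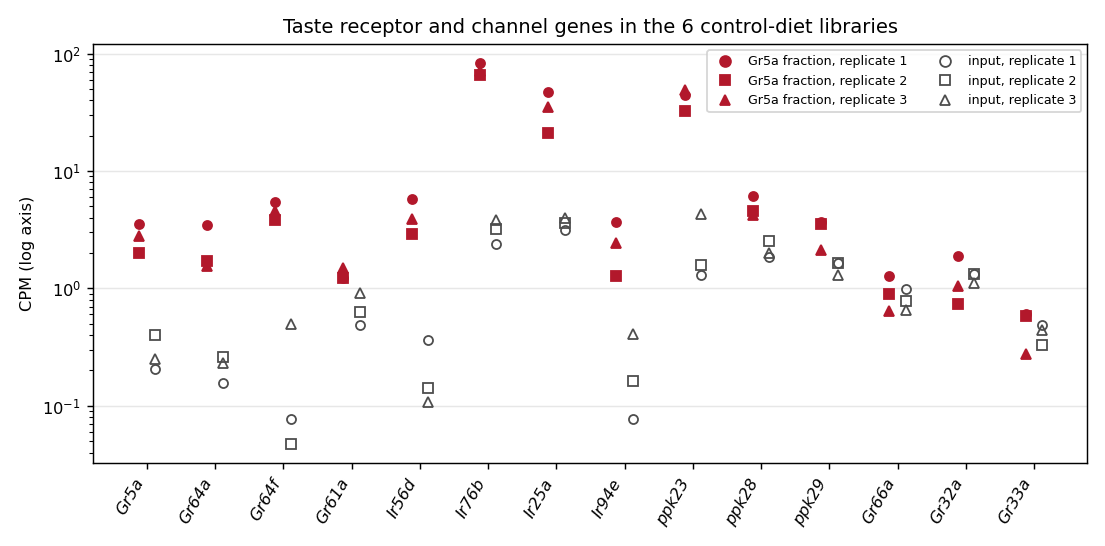
CPM (log axis) of 14 taste receptor and channel genes in the 3 Gr5a fraction libraries (filled) and the 3 input libraries (open) of the control diet, with a symbol per replicate number. The 2 fractions do not overlap from Gr5a to ppk29, while Gr66a, Gr32a and Gr33a, receptor genes of bitter-sensing cells, overlap between them.

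Receptor genes of bitter-sensing cells stayed near the input with 1 exception. Of 26 listed genes 8 were tested, 1 was called higher and none lower, and the median log2 fold change was 0.22. Gr66a, which most bitter neurons express, stood at 1.28, 0.894 and 0.639 CPM in the Gr5a fraction and 0.985, 0.774 and 0.658 CPM in the input, and its libraries overlapped between fractions. The exception was Gr8a, a receptor tied to the sensing of the plant toxin L-canavanine, at 2.94, 2.90 and 3.30 CPM in the Gr5a fraction and 0.181, 0.516 and 0.231 CPM in the input. Its fractions did not overlap, and it rose by 3.29 ± 0.41, adjusted p = 0.000441. The depth limits what can be said of the other receptor genes of this list, since 18 of 26 were below the filter.

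Among 9 tested genes of other taste and contact cells, 4 were called higher and none lower, with a median of 1.03. The largest was ppk23, a channel of pheromone-sensing and other taste cells, at 44.7, 32.1 and 48.5 CPM in the Gr5a fraction and 1.30, 1.59 and 4.32 CPM in the input. It rose by 4.09 ± 0.44, adjusted p = 0.000197, and by 4.85 without input replicate 3. Ir94e, a receptor gene of a set of labellar taste neurons, stood at 3.65, 1.27 and 2.44 CPM in the Gr5a fraction and 0.0777, 0.164 and 0.409 CPM in the input and rose by 3.43 ± 0.59, adjusted p = 0.00205, or by 4.29 without input replicate 3 and 2.36 with the unstranded counts. Smaller rises were those of ppk28, a channel that responds to water (1.23 ± 0.26, adjusted p = 0.00585), and ppk29, a partner of ppk23 (1.03 ± 0.30, adjusted p = 0.0215). The other 5 were not called, and the 3 listed genes left were below the filter.

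Genes that build and run the sensory cilium mostly rose. This compartment is made by intraflagellar transport, in which motor proteins carry cargo trains along microtubules, and by the BBSome, a complex that sorts membrane proteins into it. Of 29 tested genes 22 were called higher and 1 lower, and the median was 1.39. Transport train subunits rose, with IFT57 at 2.78, 2.21 and 2.64 CPM in the Gr5a fraction and 0.155, 0.680 and 0.587 CPM in the input (2.40 ± 0.47, adjusted p = 0.00395) and Oseg2 at 8.55, 8.70 and 11.9 CPM in the Gr5a fraction and 1.84, 2.53 and 2.44 CPM in the input (2.10 ± 0.24, adjusted p = 0.000253). Oseg5 rose by 2.29 ± 0.49, adjusted p = 0.00601, by 2.98 without input replicate 3 and by 1.70 with the unstranded counts. rempA, a subunit of the train that returns to the cell body, rose by 1.17 ± 0.16, adjusted p = 0.000585. Of the BBSome, BBS9 stood at 7.74, 6.50 and 8.44 CPM in the Gr5a fraction and 1.11, 0.868 and 2.35 CPM in the input (2.37 ± 0.35, adjusted p = 0.00102).

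Regulators and motors of the cilium list moved by different amounts. fd3F, a forkhead factor of chordotonal neurons, the stretch and sound receptors, rose by 2.87 ± 0.91, adjusted p = 0.0318. btv, the heavy chain of the dynein that drives return transport, stood at 17.0, 21.3 and 15.2 CPM in the Gr5a fraction and 4.28, 4.27 and 6.31 CPM in the input and rose by 1.84 ± 0.20, adjusted p = 0.000234, or by 1.21 with the unstranded counts. The mechanosensory channels iav (1.88 ± 0.32, adjusted p = 0.00203) and nompC (1.00 ± 0.21, adjusted p = 0.0058) of the same cells rose as well. Genes with wider use rose less or were not called: Klp64D, a subunit of the forward motor, rose by 0.43, and its partner Klp68D had -0.07. Dhc36C, an axonemal dynein, was the member called lower (-0.90 ± 0.33, adjusted p = 0.0557), a call that was lost without Gr5a replicate 1 or input replicate 2 or 3, where adjusted p lay between 0.138 and 0.170.

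Of 15 tested olfactory and other antennal receptor genes 3 were called higher, a smaller share than the 24.3% of all genes, and none lower. The median was -0.18, and the 3 called were ionotropic receptor genes. Ir75a, an acid receptor of the antenna, stood at 17.5, 15.8 and 14.5 CPM in the Gr5a fraction and 6.79, 6.94 and 6.19 CPM in the input and rose by 1.26 ± 0.16, adjusted p = 0.000444. Ir40a, which takes part in sensing dry air, rose by 1.69 ± 0.41, adjusted p = 0.01. Ir21a, which takes part in sensing cool temperature, rose by 2.58 ± 0.48, adjusted p = 0.0031, but by 0.07 (adjusted p = 0.904) with the unstranded counts, against 2.27 (adjusted p = 0.0135) for the sense strand without the same library. Orco, the co-receptor of odorant receptors, varied with the replicate number in both fractions, at 0.918, 1.99 and 3.33 CPM in the Gr5a fraction and 0.596, 1.17 and 5.94 CPM in the input, and was not called.

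Odorant-binding proteins are small proteins, many of them secreted by the support cells around sensory neurons. Which cells made each member of the list here was not tested. Of 24 tested genes of this list 9 were called higher and 5 lower, with a median of 0.38. Obp99a stood at 81.5, 43.1 and 79.5 CPM in the Gr5a fraction and 7.23, 5.25 and 4.94 CPM in the input and rose most (3.55 ± 0.38, adjusted p = 0.000186). Obp44a, at 1228, 628 and 1025 CPM in the Gr5a fraction and 504, 379 and 378 CPM in the input, rose by 1.19 ± 0.23, adjusted p = 0.0038. In the other direction, Obp99b stood at 114, 113 and 78.8 CPM in the Gr5a fraction and 386, 325 and 256 CPM in the input (-1.66 ± 0.48, adjusted p = 0.0223), and Obp19b fell as well (-1.54 ± 0.23, adjusted p = 0.000998). nompA, which support cells secrete to tie the dendrite to the cuticle, was also called lower (-1.52 ± 0.27, adjusted p = 0.00231), at 1.81, 2.58 and 1.47 CPM in the Gr5a fraction and 7.10, 5.07 and 4.78 CPM in the input.

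Genes expressed by neurons in general had a median slightly below that of all genes, and more of them were called lower than higher. Of 32 tested genes 5 (15.6%) were called higher and 11 (34.4%) lower, against 24.3% and 22.0% of all genes, with a median of -0.14. The fractions did not overlap in 5 with the pull-down higher and in 13 with it lower, against 27.3% and 27.2% of all genes. nSyb, a synaptic vesicle protein, stood at 913, 1200 and 951 CPM in the Gr5a fraction and 1198, 1218 and 1165 CPM in the input, and its log2 fold change of -0.22 was not called, although it was called when replicates were paired (adjusted p = 0.0594) and without Gr5a replicate 2 (-0.36, adjusted p = 0.0836). Among the members called higher, ple, the tyrosine hydroxylase, stood at 271, 198 and 325 CPM in the Gr5a fraction and 112, 94.3 and 109.6 CPM in the input (1.33 ± 0.18, adjusted p = 0.000601), the dopamine transporter DAT rose by 0.67 ± 0.15, adjusted p = 0.00645 and Vmat, which loads monoamines into vesicles, rose by 0.66 ± 0.11, adjusted p = 0.00185. ple also serves the cuticle, where dopamine is used for tanning. Among those called lower were the glutamate transporter VGlut (-0.51 ± 0.14, adjusted p = 0.0147), the GABA transporter VGAT (-0.64 ± 0.14, adjusted p = 0.00584) and the GABA-making enzyme Gad1 (-0.54 ± 0.11, adjusted p = 0.00468). The count of members called lower moved from 11 to 6 without input replicate 3 and to 7 without Gr5a replicate 3.

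Neuropeptide genes, which are expressed in small sets of secretory neurons in the brain, were lower with few exceptions. None of 29 tested was called higher and 23 were called lower, with a median of -1.13. Pdf, the peptide of clock neurons, stood at 4.96, 3.56 and 4.58 CPM in the Gr5a fraction and 24.2, 20.1 and 19.1 CPM in the input and fell by 2.28 ± 0.18, adjusted p = 5.86e-05 on the log2 scale. Ms, which encodes myosuppressin, stood at 22.5, 16.1 and 17.6 CPM in the Gr5a fraction and 67.6, 57.8 and 58.8 CPM in the input (-1.71 ± 0.15, adjusted p = 9.07e-05). Ilp2, an insulin-like peptide of the median neurosecretory cells, stood at 7.63, 4.89 and 4.30 CPM in the Gr5a fraction and 22.3, 13.1 and 11.1 CPM in the input (-1.47 ± 0.35, adjusted p = 0.00927). In these 3 genes every input library was above every pull-down library.

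Genes of the light-sensing cells of the eye fell by about 1 on the log2 scale, though ninaE stayed among the 5 most abundant genes of the pull-down. Of 31 tested genes 24 were called lower and 3 higher, with a median of -0.94. ninaE, the main rhodopsin, stood at 7601, 10780 and 6506 CPM in the Gr5a fraction and 17650, 16250 and 13960 CPM in the input (-0.94 ± 0.21, adjusted p = 0.00712), and it took 0.626% to 1.12% of the gene counts of the Gr5a fraction against 1.42% to 1.8% in the input. Arr1, an arrestin that shuts rhodopsin off, stood at 834, 870.1 and 709 CPM in the Gr5a fraction and 3264, 2371 and 2489 CPM in the input (-1.75 ± 0.15, adjusted p = 8.69e-05). Gbeta76C, the beta subunit of the visual G protein, fell by 1.63 ± 0.14, adjusted p = 7.36e-05, and norpA, the phospholipase C of the same cascade, by 0.84 ± 0.15, adjusted p = 0.00272. The 3 members that rose were retinin (0.97 ± 0.18, adjusted p = 0.00275), a lens protein made by the cells that secrete the cornea, laza (0.64 ± 0.11, adjusted p = 0.00256), a lipid phosphatase, and inaE (0.55 ± 0.11, adjusted p = 0.00343), a diacylglycerol lipase. The summed level of the list was 17210 to 24530 CPM in the Gr5a fraction and 34140 to 41450 CPM in the input.

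Of 13 tested genes of eye pigment, lens and carotenoid metabolism 7 were called higher and 3 lower, with a median of 0.66. The pigment transporter genes w and st rose, with w at 14.7, 10.3 and 12.0 CPM in the Gr5a fraction and 4.77, 5.02 and 4.92 CPM in the input (1.33 ± 0.19, adjusted p = 0.000805, and 0.60 with the unstranded counts) and st at 47.9, 29.7 and 42.6 CPM in the Gr5a fraction and 17.1, 17.4 and 17.6 CPM in the input (1.21 ± 0.17, adjusted p = 0.000821). sev, the receptor tyrosine kinase that directs one photoreceptor in development, stood at 246, 226 and 183 CPM in the Gr5a fraction and 86.3, 88.0 and 72.9 CPM in the input and rose by 1.40 ± 0.13, adjusted p = 0.000107. The fractions did not overlap in any of these 3. The 3 members called lower were ninaG, an enzyme that makes the pigment bound by rhodopsin (-1.28 ± 0.25, adjusted p = 0.00401), v, an enzyme of brown eye pigment synthesis (-0.78 ± 0.27, adjusted p = 0.0434), and Pph13, a homeobox factor of photoreceptors (-0.67 ± 0.16, adjusted p = 0.0102). The call of v was lost without Gr5a replicate 1 or 3 or input replicate 1 or 2 (adjusted p = 0.123 to 0.138).

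Glial genes were divided too. Of 19 tested genes 9 were called higher and 3 lower, with a median of 0.27. repo, the factor that marks nearly all glia, stood at 135, 119.5 and 129.5 CPM in the Gr5a fraction and 68.4, 70.7 and 61.1 CPM in the input and rose by 0.94 ± 0.11, adjusted p = 0.000291. Mdr65, a transporter of the blood-brain barrier, rose by 1.13 ± 0.19, adjusted p = 0.00176, and Gs2, the glutamine synthetase, by 0.81 ± 0.12, adjusted p = 0.00118. The GABA transporter Gat stood at 63.9, 57.2 and 51.2 CPM in the Gr5a fraction and 125, 104 and 109 CPM in the input and was lower (-0.97 ± 0.14, adjusted p = 0.000864), as was the amino acid transporter Eaat2 (-0.64 ± 0.12, adjusted p = 0.00354). Most of the called members of this list were thus higher in the pull-down, repo among them.

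**Figure D2:**
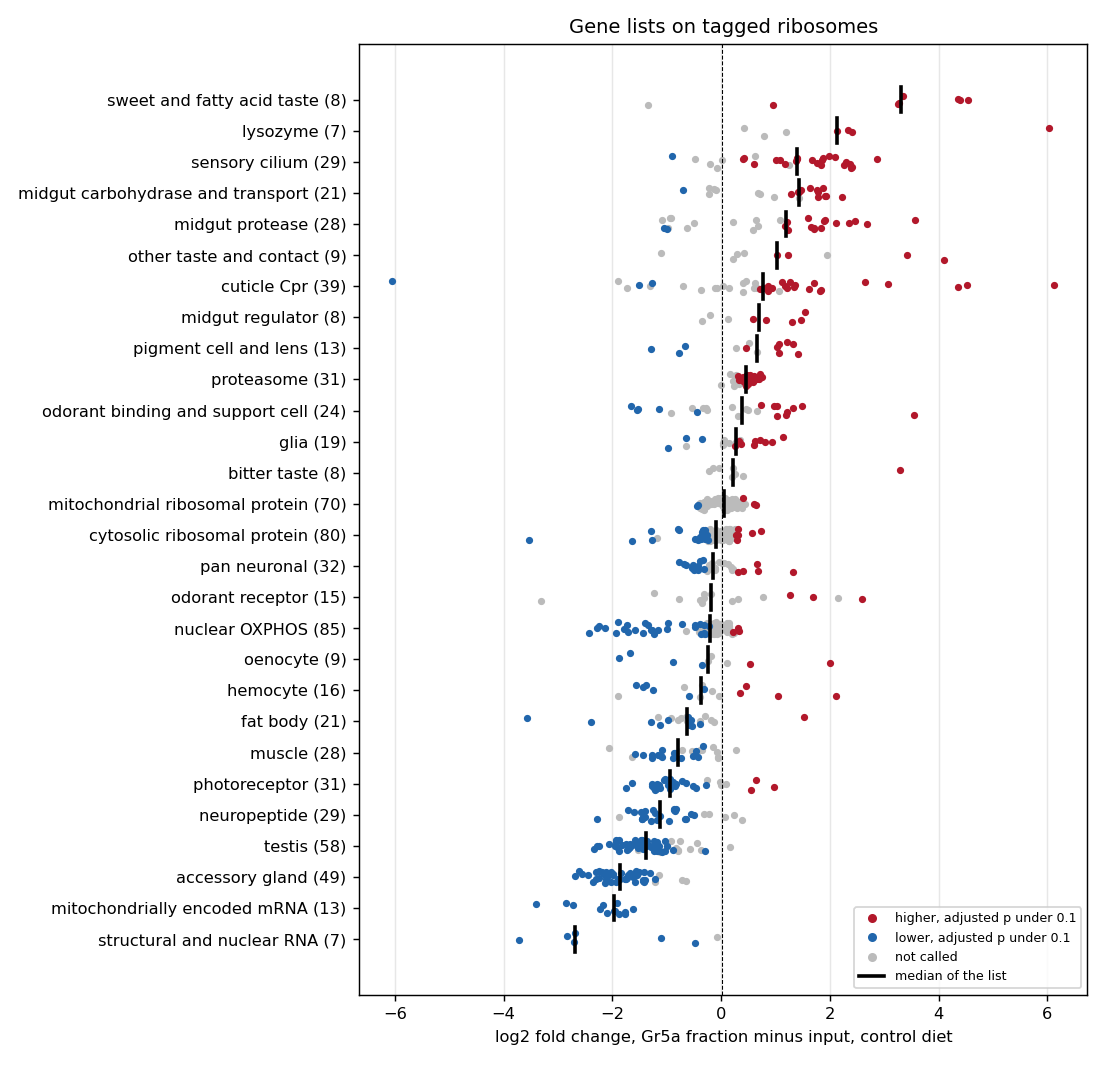
Log2 fold change of each tested member of 28 gene lists, Gr5a fraction over input on the control diet, coloured by call, with the number tested in brackets. Vertical bars mark the median of each list, from 3.31 for sweet and fatty acid taste to -1.97 for mitochondrially encoded mRNA and -2.69 for the structural and nuclear RNAs, and the dashed line marks the median of all tested genes, 0.02.

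Genes of muscle were lower or not called. None of 28 muscle genes was called higher and 16 were called lower, with a median of -0.79. The myosin light chain Mlc1 stood at 65.2, 65.8 and 75.7 CPM in the Gr5a fraction and 180.2, 164 and 214 CPM in the input (-1.43 ± 0.16, adjusted p = 0.000253) and the calponin-family gene Mp20 at 48.8, 46.1 and 48.1 CPM in the Gr5a fraction and 117, 104 and 123 CPM in the input (-1.27 ± 0.13, adjusted p = 0.000156). Of 21 fat body genes 10 were called lower and 1 higher, with a median of -0.63. apolpp, the main carrier of lipid in the blood, stood at 5650, 7127 and 4620 CPM in the Gr5a fraction and 17300, 13070 and 12160 CPM in the input (-1.29 ± 0.26, adjusted p = 0.00456), and the lipid droplet gene Lsd-1 fell by 1.12 ± 0.16, adjusted p = 0.000872. The exception was tobi, a glucosidase controlled by insulin, at 773, 450.5 and 329 CPM in the Gr5a fraction and 215, 191 and 131 CPM in the input (1.53 ± 0.44, adjusted p = 0.0219). The fat body count moved with the libraries, with 5 lower without Gr5a replicate 1 or Gr5a replicate 3, 6 without input replicate 1, and 16 when replicates were paired in the fit.

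Of 16 blood cell genes 4 were called higher and 6 lower, with a median of -0.38. Hml, a clotting protein of these cells, stood at 182, 218 and 145 CPM in the Gr5a fraction and 508, 416 and 377 CPM in the input (-1.25 ± 0.18, adjusted p = 0.00089). vkg, a collagen chain that fat body and blood cells make for basement membranes, rose by 1.05 ± 0.19, adjusted p = 0.0027. Of 9 genes of oenocytes, the hydrocarbon-making cells under the cuticle, 2 rose and 4 fell, with a median of -0.24. Cyp4g1, their decarbonylase, stood at 712, 1156 and 1029 CPM in the Gr5a fraction and 3679, 3321 and 3688 CPM in the input (-1.88 ± 0.33, adjusted p = 0.00238), while hgo, which breaks down tyrosine, stood at 107, 73.0 and 88.6 CPM in the Gr5a fraction and 26.0, 24.1 and 17.5 CPM in the input (1.99 ± 0.24, adjusted p = 0.000361).

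Genes of digestive enzymes, which the midgut is known for, were higher in the pull-down from these heads. Of 28 tested midgut protease genes 15 were called higher and 2 lower, with a median of 1.19. The fractions did not overlap in 17 of them with the pull-down higher and in 5 with it lower, against 27.3% and 27.2% of all genes. betaTry, a trypsin, stood at 436, 215 and 359 CPM in the Gr5a fraction and 67.7, 55.7 and 73.7 CPM in the input (2.36 ± 0.44, adjusted p = 0.00298), and Jon74E, a serine protease, at 244, 103 and 159 CPM in the Gr5a fraction and 27.6, 16.4 and 34.4 CPM in the input (2.69 ± 0.49, adjusted p = 0.0029). Bace, an aspartic protease, rose by 2.12 ± 0.42, adjusted p = 0.00409. The 2 members called lower were zetaTry and thetaTry, and the call was lost in all 6 of the fits that left out 1 library for zetaTry and in 3 of them, those without Gr5a replicate 2 or 3 or input replicate 3, for thetaTry. Of 21 tested genes of sugar and mannose cleavage and sterol transport 12 were called higher and 1 lower, with a median of 1.43. The maltase Mal-A6 stood at 728, 389 and 326 CPM in the Gr5a fraction and 129, 96.8 and 82.0 CPM in the input (2.23 ± 0.47, adjusted p = 0.0054), and the amylase Amy-p rose by 1.92 ± 0.42, adjusted p = 0.00656, or by 1.30 without Gr5a replicate 1 and 1.28 with the unstranded counts. Near-identical copies in the Jon, Try, Amy and Lys families share reads that this counting leaves out, so their counts are uncertain.

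Regulators of the midgut were mostly higher too. Of 8 tested factor genes 5 were called higher and none lower, with a median of 0.70. Their log2 fold changes ran from -0.35 to 1.54, and in 1 gene every pull-down library lay below every input library. GATAe stood at 30.5, 27.5 and 31.5 CPM in the Gr5a fraction and 9.51, 11.0 and 10.2 CPM in the input, cad, a homeobox factor of the hindgut and midgut, at 44.2, 34.9 and 60.1 against 15.8, 15.5 and 18.9 CPM, and Ptx1 at 40.4, 29.2 and 38.3 against 15.1, 13.2 and 15.3 CPM. The fractions did not overlap in any of these 3. The study followed up these 3 genes and nub, a further member of the list. It chose them in part by their changes on a sugar diet in libraries of this series. It also reported them as enriched over the input, so the list holds genes already reported as higher in these data. The summed level of the protease list was 2036 to 3918 CPM in the Gr5a fraction and 753.8 to 946.9 CPM in the input, and whether digestive tissue in the heads had a part in it was not tested.

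Lysozyme genes, whose products break bacterial walls and are used in digestion, held the second largest increase among the genes named by rank. Of 7 tested 4 were called higher and none lower, with a median of 2.12. LysP stood at 217, 23.5 and 326 CPM in the Gr5a fraction and 3.5, 0.422 and 4.67 CPM in the input. It rose by 6.02 ± 1.12, adjusted p = 0.00303, or by 5.37 without Gr5a replicate 3, and replicate 2 was lowest in both fractions. LysD rose by 2.33 ± 0.68, adjusted p = 0.0228, but by 1.74 without Gr5a replicate 1, and by 1.14 (adjusted p = 0.268) with the unstranded counts. LysB rose by 2.12 ± 0.56, adjusted p = 0.0141.

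Genes of the cuticle rose as well. Of 39 tested genes of the Cpr family, which encode chitin-binding cuticle proteins, 20 were called higher and 3 lower, with a median of 0.78, and the count called higher was 13 without Gr5a replicate 1. Cpr66Cb stood at 15.4, 7.35 and 21.1 CPM in the Gr5a fraction and 0.518, 0.539 and 0.818 CPM in the input (4.52 ± 0.43, adjusted p = 0.000104) and Cpr49Ae at 175, 122 and 137 CPM in the Gr5a fraction and 24.4, 22.9 and 21.8 CPM in the input (2.65 ± 0.15, adjusted p = 1.1e-05). Cpr92A rose by 4.36 ± 0.43, adjusted p = 0.000135. In each of these 3 the lowest pull-down library lay several times above the highest input library.

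Genes of the male reproductive tract were detected in the head libraries and were lower in the pull-down. None of 49 tested accessory gland genes was called higher and 43 were called lower, with a median of -1.87. Their summed level was 392.5 to 488 CPM in the Gr5a fraction and 1327 to 1805 CPM in the input. SP, the sex peptide, stood at 3.67, 3.83 and 3.61 CPM in the Gr5a fraction and 25.5, 18.4 and 27.7 CPM in the input (-2.69 ± 0.32, adjusted p = 0.000341), and Acp36DE, a seminal fluid protein for sperm storage, at 83.6, 113 and 95.5 CPM in the Gr5a fraction and 336, 242 and 290.3 CPM in the input (-1.57 ± 0.37, adjusted p = 0.00906). Of 58 testis genes none was called higher and 46 were called lower, with a median of -1.38, and the sperm tail gene Mst87F stood at 14.9, 19.2 and 18.6 CPM in the Gr5a fraction and 64.5, 86.4 and 98.5 CPM in the input (-2.24 ± 0.28, adjusted p = 0.000436). The labels name heads alone, and the source of this RNA was not tested.

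The 12 called genes with the largest increase, counting genes that averaged 5 CPM or more and did not overlap between fractions, had log2 fold changes of 5.17 to 6.22. First was lcs, known as la costa, at 7233, 3610 and 7594 CPM in the Gr5a fraction and 100, 60.8 and 86.2 CPM in the input (6.22 ± 0.50, adjusted p = 5.86e-05). whe stood at 4006, 1485 and 4045 CPM in the Gr5a fraction and 64.1, 32.2 and 56.6 CPM in the input (5.96 ± 0.58, adjusted p = 0.000128). CG16826, at 16310, 7817 and 18550 CPM in the Gr5a fraction and 283, 205 and 294 CPM in the input, rose by 5.77 ± 0.50, adjusted p = 8.52e-05 and took 0.814% to 1.78% of the gene counts of the Gr5a fraction. The others were LysP, CG34211, CG43680, CG45080, CG34212, CG44142, CG13947, CG13946 and CG33109, of which CG13947 rose by 5.29, by 4.29 without Gr5a replicate 1 and by 4.31 with the unstranded counts. Replicate 2 was the lowest of the 3 pull-down libraries in all 12, and it was still above every input library.

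Several of these genes were neighbours. Of the 12 genes 8 lay within 10000 bases of another of the 12, in 4 pairs. lcs (X:21396727-21397316, minus strand) and whe (X:21402339-21402772, minus strand) lay 5023 bases apart on BDGP6. CG13946 (2L:776536-776941) and CG13947 (2L:779173-779655) were both on the plus strand, 2232 bases apart. CG34211 (2R:6047195-6047392, plus strand) and CG34212 (2R:6049874-6050286, minus strand) lay 2482 bases apart, and CG45080 (3R:13318991-13319270) and CG44142 (3R:13312855-13313188), both on the minus strand, 5803 bases apart. Most were short genes, with 10 of the 12 having between 198 and 615 bases of exon, and the files and annotation used here give no role for the numbered genes. None of the 12 overlapped another gene on the same strand.

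**Figure D3:**
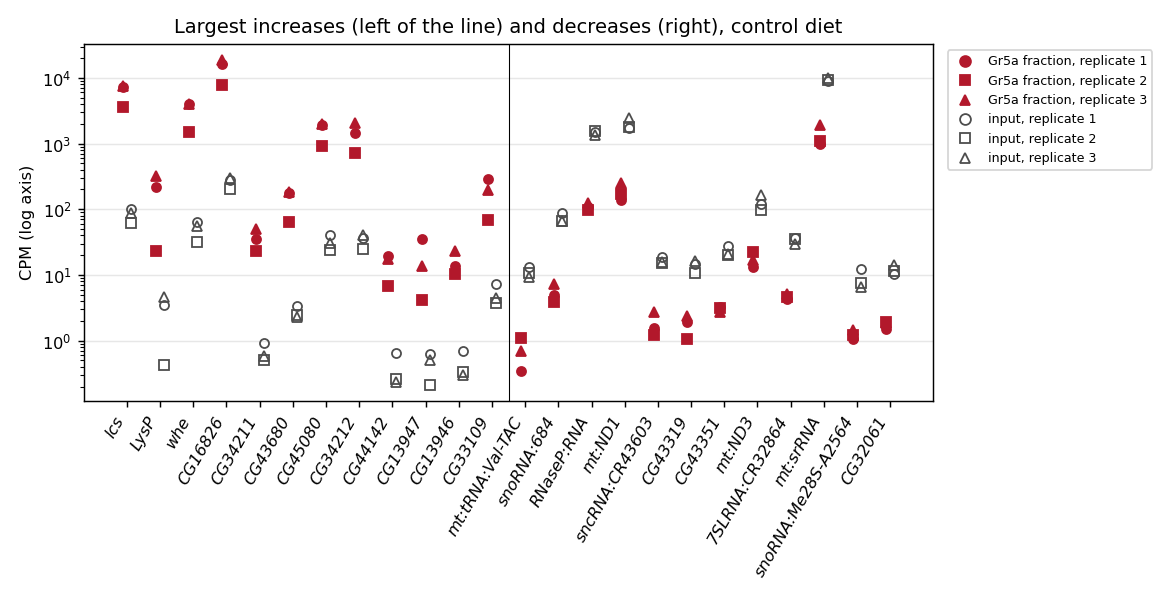
CPM (log axis) of the 12 genes with the largest increase (left of the line) and the 12 with the largest decrease (right of it) in the 3 Gr5a fraction libraries (filled) and the 3 input libraries (open). The square of replicate 2 is the lowest filled symbol in all 12 increases, and no filled symbol overlaps an open one in any of the 24 genes.

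The 12 genes with the largest decrease had log2 fold changes of -3.92 to -2.74 and were mostly not cytoplasmic mRNAs. Of the mitochondrial genome came mt:tRNA:Val-TAC (-3.92 ± 0.90, adjusted p = 0.00797), the small ribosomal RNA mt:srRNA (-2.83 ± 0.34, adjusted p = 0.000371), mt:ND1 and mt:ND3. RNaseP:RNA, the RNA part of the enzyme that trims tRNAs in the nucleus, stood at 109, 98.8 and 126 CPM in the Gr5a fraction and 1507, 1541 and 1363 CPM in the input and fell by 3.72 ± 0.20, adjusted p = 1.04e-05. 7SLRNA:CR32864, an RNA of the signal recognition particle, stood at 4.38, 4.61 and 5.19 CPM in the Gr5a fraction and 36.0, 35.8 and 29.4 CPM in the input (-2.83 ± 0.16, adjusted p = 1.1e-05). The snoRNAs snoRNA:684 (-3.80 ± 0.38, adjusted p = 0.000135) and snoRNA:Me28S-A2564 (-2.83 ± 0.47, adjusted p = 0.00169), which guide changes to other RNAs in the nucleus, and sncRNA:CR43603 (-3.15 ± 0.34, adjusted p = 0.000198) were in the same set. The remaining 3, CG43319, CG43351 and CG32061, are protein-coding and had log2 fold changes of -2.95, -2.90 and -2.74.

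All 13 mitochondrially encoded mRNAs, which ribosomes of the mitochondrion translate, were called lower. Their median was -1.97, and their log2 fold changes ran from -3.40 to -1.61. mt:CoI, a subunit of cytochrome oxidase, stood at 5733, 6182 and 6468 CPM in the Gr5a fraction and 19590, 18930 and 23900 CPM in the input (-1.76 ± 0.16, adjusted p = 9.29e-05), and mt:ND1, a subunit of complex I, at 136, 171 and 253 CPM in the Gr5a fraction and 1715, 1786 and 2421 CPM in the input (-3.40 ± 0.25, adjusted p = 4.76e-05). The list summed to 11820 to 13680 CPM in the Gr5a fraction and 43210 to 55890 CPM in the input. Nuclear genes of the same respiratory complexes had a median of -0.21, with 3 of 85 called higher and 28 lower. Among those that fell was ATPsynCF6L, named as a paralog of an ATP synthase subunit (-2.24 ± 0.30, adjusted p = 0.000576). The list was matched by gene name and holds other such paralogs, whose share of the 28 was not counted.

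Most structural and nuclear RNAs were lower too, with 6 of 7 called and a median of -2.69. Their log2 fold changes ran from -3.72 for RNaseP:RNA to -0.08 for the long non-coding lncRNA:Hsromega. That RNA was the member not called, and its libraries overlapped between fractions. RNaseMRP:RNA stood at 294, 224 and 325 CPM in the Gr5a fraction and 1819, 1859 and 1848 CPM in the input (-2.71 ± 0.16, adjusted p = 1.89e-05). snRNA:7SKa, which restrains transcription in the nucleus, stood at 1531, 1506 and 1369 CPM in the Gr5a fraction and 5618, 6164 and 6698 CPM in the input (-2.07 ± 0.16, adjusted p = 5.46e-05). Of 26 tested snRNAs 9 were called lower and 2 higher. One that rose was snRNA:U4atac, of the minor spliceosome, at 200.3, 302 and 266 CPM in the Gr5a fraction and 108, 70.8 and 56.5 CPM in the input (1.71 ± 0.51, adjusted p = 0.025). Of 203 snoRNAs 32 (15.8%) were called lower and 4 (1.97%) higher, with a median of -0.03. Of 1399 long non-coding and antisense RNAs 294 (21.0%) were called lower and 42 (3.00%) higher, with a median of -0.54. Neither share called lower was above that of all tested genes, 22.0%, while both shares called higher were below the 24.3% of all tested genes. By overlap the long non-coding and antisense RNAs differed from this. Every pull-down library lay below every input library in 449 of the 1399, a larger share than the 27.2% of all genes. It lay above in 55, against 27.3% of all genes. Of the 203 snoRNAs 50 lay below and 9 above in this way.

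The translation machinery itself stayed near the input. Of 80 cytosolic ribosomal protein genes 7 were called higher and 21 lower, with a median of -0.09. RpL22, which overlaps a non-coding gene on the same strand, rose by 0.73 ± 0.14, adjusted p = 0.00333. Among those that fell were RpS29 (-0.78 ± 0.12, adjusted p = 0.00116) and members named as paralogs, such as RpL10Aa (-1.29 ± 0.24, adjusted p = 0.00315) and RpS19b (-1.65 ± 0.34, adjusted p = 0.0049). Of 70 mitochondrial ribosomal protein genes 3 were called higher and 2 lower, with a median of 0.05. Genes often used as references were not all level, since Act5C, a cytoplasmic actin, stood at 1837, 1533 and 1567 CPM in the Gr5a fraction and 1055, 1010 and 906 CPM in the input and rose by 0.73 ± 0.12, adjusted p = 0.00146.

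Most proteasome and secretion genes rose by small amounts, and those of the proton pump were called in both directions. Of 31 proteasome genes 20 were called higher and none lower, with a median of 0.45, and the core subunit Prosalpha4 stood at 53.6, 36.6 and 45.6 CPM in the Gr5a fraction and 29.5, 24.3 and 26.4 CPM in the input (0.76 ± 0.15, adjusted p = 0.00468). The proteasome count was 13 with the unstranded counts. Of 16 genes of secretion and the unfolded protein response 10 were called higher and none lower, with a median of 0.36, and the regulator Xbp1 rose by 0.82 ± 0.10, adjusted p = 0.00048. Of the vacuolar proton pump, 10 of 27 genes were called higher and 13 lower, with a median of -0.56. Its summed level was 6041 to 7359 CPM in the Gr5a fraction and 4536 to 4651 CPM in the input, and the members called lower included paralogs with low levels, such as Vha16-2. The catalytic subunit Vha68-2 stood at 655, 548 and 678 CPM in the Gr5a fraction and 244, 252 and 239 CPM in the input (1.35 ± 0.11, adjusted p = 6.91e-05) and the membrane subunit Vha100-2 rose by 1.30 ± 0.12, adjusted p = 9.7e-05. Vha68-1, a paralog of that catalytic subunit, stood at 148, 147 and 145 CPM in the Gr5a fraction and 221, 209.7 and 218 CPM in the input (-0.56 ± 0.09, adjusted p = 0.00144). The ring subunit gene Vha16-1 rose by 0.56 ± 0.12, adjusted p = 0.00708.

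Across classes of genes, the pull-down was higher for protein-coding genes with more exon sequence. Of 12124 protein-coding genes 3309 (27.3%) were called higher and 2690 (22.2%) lower, against 43 (2.93%) and 304 (20.7%) of 1470 non-coding RNA genes. Protein-coding genes were split by exon sequence into 4 classes of like size. In the class with the shortest, 162 to 1115 bases, the median log2 fold change was -0.26, with 16.3% called higher and 34.5% lower. In the class with the longest, 3176 to 71820 bases, it was 0.16, with 37.6% called higher and 11.2% lower. The 12 genes with the largest increases all fell in the 2 classes with the shortest exon sequence. By chromosome arm the median was between -0.02 and 0.08 on the major autosome arms and 0.16 on the X, where 33.8% of 1926 protein-coding genes were called higher and 17.2% lower. It was -0.23 for 79 genes of chromosome 4, of which 5 were called higher and 24 lower.

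Some tissue genes followed the replicate number in both fractions. The 3 sets described here were chosen after their values were seen and were not tested. The summed level of 7 odorant-binding proteins of the antenna was 8.10, 5.53 and 42.6 CPM in the Gr5a fraction and 1.84, 2.82 and 53.3 CPM in the input, with replicate 3 the highest in both. For TpnC4, fln and Act88F, genes of flight muscle, it was 6.43, 3.99 and 11.4 CPM against 20.5, 5.89 and 27.4 CPM. Flight muscle lies in the thorax. Replicate 2 was the lowest sum in both fractions, although Act88F alone stood at 2.54, 3.88 and 5.72 CPM in the Gr5a fraction. For 10 antimicrobial peptides, which fat body makes after infection, the summed level was 94.7, 60.6 and 12.8 CPM against 356, 145 and 20.8 CPM. Replicate 1 was the highest sum and replicate 3 the lowest in both. CecA1 alone stood at 2.39, 1.35 and 2.05 CPM in the Gr5a fraction. Other listed peptides, such as BomS1 and Dso1, were left out of this sum.

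**Figure D4:**
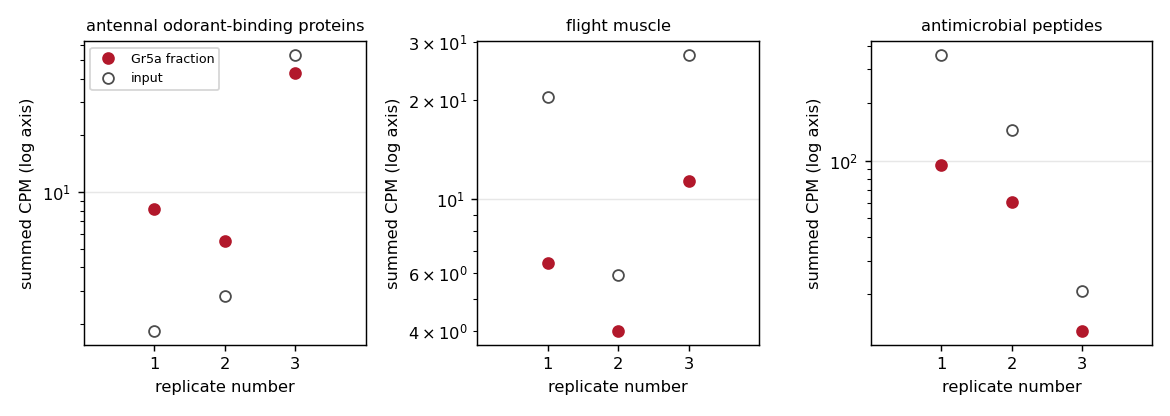
Summed CPM (log axis) of 7 antennal odorant-binding protein genes, 3 flight muscle genes and 10 antimicrobial peptide genes by replicate number (x axis), in the Gr5a fraction (filled) and the input (open) of the control diet. The antennal set is highest in replicate 3 and the flight muscle set lowest in replicate 2 in both fractions, and the antimicrobial peptides run from 356 to 20.8 CPM across the input libraries.

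The 4 libraries of the sugar diet, which the control-diet comparison did not use, gave values of their own, although all 10 libraries shared 1 estimate of the spread. Of the 3442 genes called higher on the control diet 3222 (93.6%) had a positive log2 fold change on the sugar diet and 1455 (42.3%) were called higher there, where 10.8% of all genes were. Of the 3114 called lower 2556 (82.1%) had a negative value and 711 (22.8%) were called lower, where 7.95% of all genes were. None was called in the opposite direction. Among the 7629 genes not called on the control diet, 4818 (63.15%) had the same sign on both diets. Gr5a rose by 4.43 ± 0.59, adjusted p = 0.00188, Ir76b by 4.32 ± 0.22, adjusted p = 2.53e-05 and lcs by 6.61 ± 0.62, adjusted p = 0.000389 on the sugar diet. List medians on that diet were 4.01 for sweet and fatty acid taste, 1.36 for the cilium and -1.08 for photoreceptors. They were 1.55 for midgut proteases and -2.29 for mitochondrial mRNAs. Some other lists changed sign from the control to the sugar diet. Glia went from 0.27 to -0.11, bitter taste from 0.22 to -0.54 and odorant receptors from -0.18 to 0.14. Oenocyte genes went from -0.24 to 0.10 and the proton pump from -0.56 to 0.08. The neuronal median was -0.14 on the control diet and -0.51 on the sugar diet, where 18 of 32 genes were called lower.

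For male reproductive genes the medians on the sugar diet were -0.41 for the accessory gland and -0.13 for testis, against -1.87 and -1.38 on the control diet, and 2 of 49 and 2 of 58 were called lower. For SP the sugar-diet value was -1.23 ± 0.37, adjusted p = 0.0587. A test of the difference between diets, the diet by fraction interaction, called none of the 14185 genes in edgeR (0.00%, smallest adjusted p 0.487), with 1391 genes (9.81%) at an unadjusted p under 0.05, and so gave no gene for which the fractions were shown to differ by diet. The sugar groups had 2 libraries each.

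**Figure D5:**
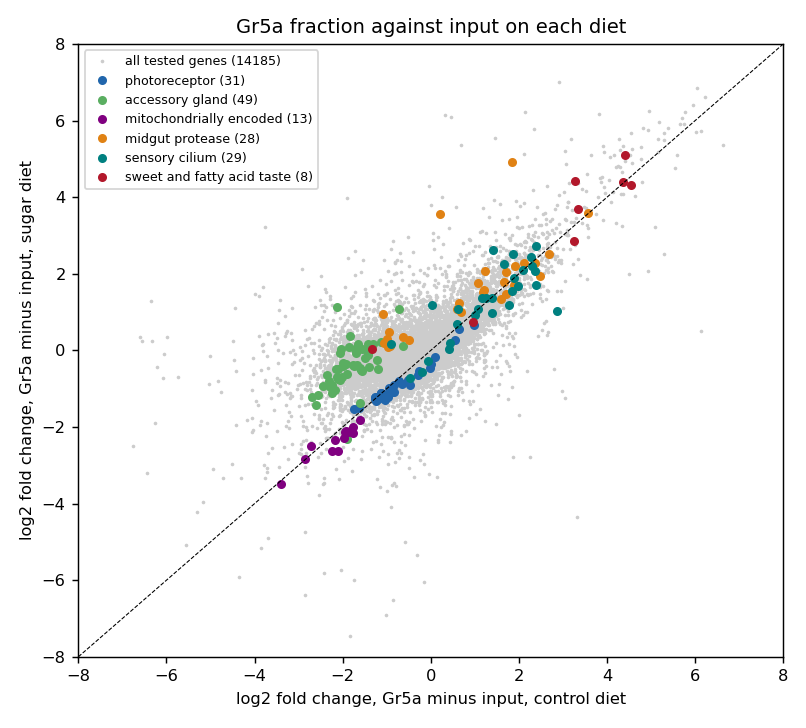
Log2 fold change of the Gr5a fraction over the input on the sugar diet (y axis) against the control diet (x axis) for all 14185 tested genes and 6 lists, with equal values on the dashed line. Most taste and cilium genes lie high on both axes, photoreceptor and mitochondrial genes low on both, and accessory gland genes lie low on the x axis but closer to 0 on the y axis, with medians of -1.87 and -0.41.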

How the data were processed

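The authors deposited raw counts per gene, made by their processing notes with STAR, HTSeq and SAMtools 1.4 against BDGP6, with DESeq2 1.18.0 for their tests. Depth per library is given in the report and leaves receptor genes with few counts. The sense-strand column was used throughout, and 1 library (Gr5a replicate 1) had only 1 count column, which matched the sense strand of the other replicates. Rows that name no gene stayed out of totals and tests. Reads that map to several places are not in these columns. Names and positions came from the Ensembl annotation of BDGP6, and 18 listed symbols matched no row.

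The test was that of edgeR 4.0.16, run in R 4.3.3 (filterByExpr, TMM, quasi-likelihood F test, Benjamini-Hochberg, adjusted p under 0.1), with a term for each of the 4 groups of the 10 day-7 libraries. The study made pairwise comparisons of fraction and input, and whether its design held the replicate is not given in the sources used here. Genes were named if they were members of a gene list, if they were among the 12 largest increases or decreases that averaged 5 CPM or more and did not overlap between fractions, or if they were among the 5 most abundant of a fraction. Members and lists were chosen with earlier results of these data known. Lists have no test. The scripts were tested on simulated data. Same-numbered libraries deviated together from their group means (correlation 0.343, 0.233 and 0.277, and -0.233 to -0.0378 for other pairs), so the numbers pair the samples. The main test had no term for this pairing, so its p-values and calls ignore it. With such a term, fitted to the 6 control-diet libraries, 7915 genes were called against 6556, and 97.8% of the main calls were kept. Because nothing in the labels says that replicates were separate cohorts, p-values measure the spread between these samples. Alternatives were unstranded counts, DESeq2 1.42.0, other scalings and filters, the 6 libraries alone, the replicate block, another prior count and leaving out each library.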

Additional observations from a re-analysis of the deposited data

How the results depend on the processing

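Across 17 alternatives the number of genes called ran from 4782, without input replicate 3, to 7915, with the replicate number as a block, against 6556, and no gene was called in the opposite direction. The median of all genes lay between -0.015 and 0.03 on the log2 scale, and the share of calls that were higher between 48.8% and 53.3%. With at least 10 counts in every library, 3 sweet and fatty acid taste genes were tested and all 3 rose, 0 of 3 bitter taste genes rose, and the medians were 1.24 for the cilium and -0.95 for neuropeptides. With the unstranded counts, medians were -0.95 for neuropeptides, -0.53 for muscle, 1.14 for lysozymes and -1.55 for the accessory gland, and 2 lysozyme genes rose, 13 proteasome genes rose and 6 fat body genes fell. With library totals alone the neuropeptide median was -1.16. With the replicate block 16 fat body genes fell, and beside RpL3 and nSyb the block changed the call of no other named gene. Leaving out 1 library at a time gave medians of -1.18 to -1.03 for neuropeptides, 0.63 to 0.88 for pigment genes and -0.71 to -0.51 for fat body, and counts of 6 to 15 neuronal genes lower, 5 to 10 fat body genes lower and 13 to 18 cuticle genes higher. The value of Gr66a, which was not called, ran from -0.061 without Gr5a replicate 1 to 0.44 without Gr5a replicate 3. The cause of these shifts was not tested.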
